A study of Homo sapiens with 6 samples.

Results

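The genes described here are the receptors for insulin and the insulin-like growth factors (IGFs), the insulin receptor substrate (IRS) adaptors and the IGF-binding proteins (IGFBPs): INSR, IGF1R, IGF2R, IRS1, IRS2, IGFBP2, IGFBP3, IGFBP4, IGFBP6 and IGFBP7. They were chosen by name, and all 10 had a row among the 12829 genes of the deposited table. RNA-seq was done on HaCaT cells, an immortalised, aneuploid human keratinocyte line. The control group, labelled normal control with genotype WT, had 3 libraries, and the other group, in which an shRNA lowered IQGAP2, a scaffold protein that binds actin and calmodulin, also had 3. Whether the control carried a hairpin, how many hairpins were used and whether the knockdown cells were a clone or a pool is not stated in the labels.

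Insulin and the IGFs act through 2 related receptor tyrosine kinases, the products of INSR and IGF1R. The active receptors phosphorylate IRS1 and IRS2, which recruit phosphoinositide 3-kinase (PI3K) and so switch on AKT and mTOR, and S6 kinase in turn restrains the IRS adaptors. IGF2R has no kinase: it carries IGF2 and enzymes tagged with mannose 6-phosphate to the lysosome. The secreted IGFBPs hold IGFs in the fluid around cells and set how much reaches the receptors. In skin, IGFs come largely from dermal fibroblasts, while keratinocytes carry the receptors and secrete IGFBPs.

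Levels are in FPKM (fragments per kilobase, scaled to depth), so that different genes are compared per length. Means are given with their SD (n = 3 libraries). A log2 change is the knockdown minus the control mean of log2(FPKM + 1), a scale on which low genes appear to change less than they do. Significance was judged by limma at an adjusted p of 0.05 over 11215 genes. Each library title carries the tag biol rep, so the submitters present the libraries of a group as biological replicates. Whether each came from its own culture is not described, and the tests see only the variation among these libraries. In a design of 3 against 3 the exact two-sided permutation test of a single gene cannot go below p = 0.1, which it reached for the 8 of the 10 genes whose groups did not overlap.

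Between 12985032 and 15460328 reads per library could be recovered from the FPKM values. IQGAP2 was at 0.190 to 0.2001 FPKM in control libraries and 0.0182 to 0.0328 FPKM after knockdown, on 67 and 8 reads in all. It was low in the controls too, and below the average of 0.5 FPKM needed for the limma test. Corrected for depth, 12.2% of its reads remained after knockdown (exact 95% interval of counting error 5.07% to 25.5%). No gene of the table averaged under 0.1 FPKM, so IQGAP2 had a row only through its control values, which favours a fall. In GENCODE v29, exons of F2RL2 on the opposite strand share 87 bases with those of IQGAP2. Without known use of strand such reads cannot be told apart. All 8 keratinocyte markers looked for were in the table, with sums of 5620 to 5730 FPKM in control and 5840 to 6330 FPKM in knockdown libraries. Of these, 5 rose and 3 did not pass: KRT5 rose from 1149 ± 3.61 to 1483 ± 62.8 FPKM and TP63 from 101 ± 0.980 to 114 ± 5.50 FPKM, while KRT14 had 2575 ± 62.0 and 2313 ± 190.2 FPKM. COL17A1 and DSG3, named after their values were seen, rose 2.09-fold and 2.12-fold. Of 8 fibroblast markers, 3 were in the table and summed to 3.46 to 3.79 FPKM in control and 1.56 to 1.91 FPKM in knockdown libraries, COL1A1 being highest over all libraries (1.24 ± 0.159 and 1.44 ± 0.178 FPKM). LUM, named after its values were seen, made up most of that difference, at 2.21 ± 0.346 and 0.268 ± 0.134 FPKM. Of melanocyte markers 2 of 7 were present (sums 1.20 to 1.28 and 0.855 to 1.04 FPKM, PMEL highest at 0.886 ± 0.0747 FPKM in controls), of endothelial markers 2 of 5 (0.269 to 0.401 and 0.424 to 0.484 FPKM, VWF highest at 0.423 ± 0.0528 FPKM after knockdown) and of leukocyte markers 1 of 6 (CD14, 0.172 to 0.557 and 0.0467 to 0.261 FPKM). Knockdown replicate 2 was unlike its fellow replicates: the chi-square per degree of freedom between their reads was 10.6 and 11.4, where other pairs of a group gave 2.11 to 2.52. Longer genes had higher changes: the median was -0.20 for the decile of shortest genes and 0.17 for that of the longest. Knockdown replicate 2 was set apart from its fellows by a like trend, with medians of -0.14 and 0.11. What depth, length, other cells or this library contribute was not tested beyond the values given beside each result.

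Of the 10 genes, 4 rose in the knockdown (IGF2R, IRS1, IRS2 and IGFBP2), 2 fell (IGFBP4 and IGFBP7), and INSR, IGF1R, IGFBP3 and IGFBP6 did not pass the test. Among all genes tested 57.4% passed, 29.6% upwards and 27.8% downwards, so 6 in 10 is near the background of these libraries. That count depended on the processing. Without knockdown replicate 2, 9 of the 10 passed (5 higher, 4 lower) while 6462 of all genes did against 6436 before. With voom on recovered reads 8 of the 10 passed (4 higher, 4 lower), and 6677 of all genes did. The groups were apart for 8 of the 10 genes, against 65.1% of all genes. The median change was 0.06 over the 10 genes and 0.01 over all genes. The filter on low values was passed by 9 of the 10, and IGFBP2, below it, was added to the fit. IGFBP2 had a row only through its knockdown values, since no gene of the table averaged under 0.1 FPKM, so its rise was favoured beforehand. Giving every library the same FPKM sum moved the median of all genes up by 0.13 and the upward share of the calls from 51.5% to 72.6%.

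**Figure D1:**
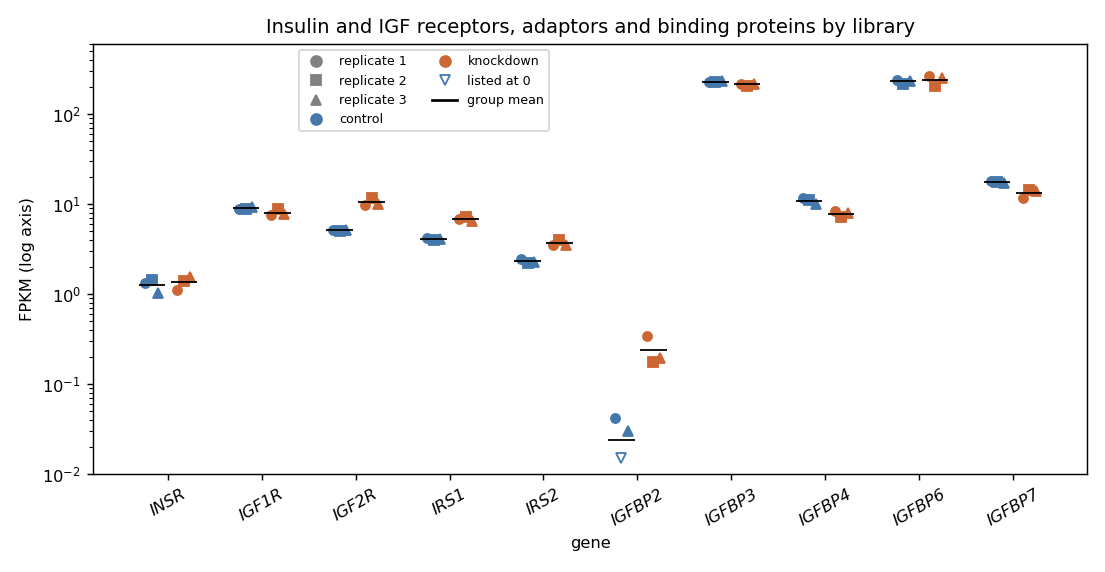
FPKM on a log axis for each gene and library, in control (blue) and knockdown (orange) libraries, with a symbol for each replicate number, a line at the group mean and an open triangle for the control library in which IGFBP2 was listed at 0. IGFBP3 and IGFBP6 lie at or above 204 FPKM in every library, the receptors and IRS genes between 1.03 and 11.6 FPKM, and IGFBP2 at most at 0.341 FPKM.

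In control libraries IGFBP6 (229.8 ± 11.5 FPKM) and IGFBP3 (229 ± 1.47 FPKM) were highest and overlapped each other, and both lay above 99.0% of the genes in the table. IGFBP7, IGFBP4, IGF1R, IGF2R, IRS1, IRS2 and INSR followed in that order, without overlap between neighbours, and IGFBP2 (0.0238 ± 0.0214 FPKM) was last. After knockdown IGFBP6 and IGFBP3 again overlapped at the top. IGF2R moved from rank 6 to rank 4, above IGF1R, while IGFBP4 moved from rank 4 to rank 6 and overlapped IGF1R. IGF2R also overlapped IGFBP7 above it, with 11.58 FPKM in knockdown replicate 2 against 11.52 FPKM for IGFBP7 in knockdown replicate 1. The other 8 genes kept their rank. Ranks between genes depend on the gene lengths behind the FPKM values. As inferred from those values, the length of IGF2R was about 22613 bases, where GENCODE v29 exons give 17843. For IGF1R both were 13941.

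The receptor genes went different ways. IGF2R (ENSG00000197081, GRCh38 chr6:159969099-160113507, plus strand), the mannose 6-phosphate receptor that removes IGF2, showed the largest change of the 10 on the log2(FPKM + 1) scale, on which the change of the barely detected IGFBP2 is small (with voom IGFBP2 was at 3.27 and IGF2R at 1.01, and with a pseudocount of 0.1 at 1.43 and 1.01). Control replicates 1, 2 and 3 had 5.20, 5.06 and 5.10 FPKM, and knockdown replicates 1, 2 and 3 had 9.80, 11.6 and 9.95 FPKM. Every knockdown library was above every control library, and knockdown replicate 2 was the highest. The mean rose 2.04-fold, from 5.12 ± 0.0719 to 10.4 ± 0.985 FPKM (a log2 change of 0.90, SE 0.070, adjusted p = 5.79e-06), higher than the signed change of 98.8% of genes tested. IGF2R is in the longest decile of genes, and with the length trend removed its change was 0.69 (adjusted p = 3.83e-06). It had 1617 to 1792 recovered reads per control library and 2882 to 4053 per knockdown library.

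The upstream sequence of IGF2R is shown because its gene had the largest change on the log2(FPKM + 1) scale. The 250 bases before the RefSeq start site (GRCh38.p14, chr6:159968832-159969081, plus strand) hold the E-box CACGTG, in capitals, at 3 places, which begin at positions -132, -74 and -28 from the start:
IGF2R: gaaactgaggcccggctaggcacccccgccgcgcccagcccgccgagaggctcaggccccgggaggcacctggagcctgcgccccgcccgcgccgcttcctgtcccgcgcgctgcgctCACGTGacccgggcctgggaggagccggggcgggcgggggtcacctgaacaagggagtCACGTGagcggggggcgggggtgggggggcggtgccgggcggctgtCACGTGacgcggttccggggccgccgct
CACGTG is the core bound by basic helix-loop-helix factors such as USF, MYC and the lysosomal regulators of the MiT/TFE family. Among 35116 RefSeq promoter windows of 300 bases (250 before the start to 50 after it), searched on both strands, 7.26% held CACGTG at least once and 33, or 0.094%, at 3 or more places. A match describes the letters and does not show that a factor bound there.

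IGF1R (ENSG00000140443, GRCh38 chr15:98648539-98964530, plus strand), the kinase receptor for IGF1 and IGF2, gave 8.89, 8.91 and 9.26 FPKM in the controls and 7.55, 8.71 and 7.75 FPKM after knockdown. All 3 knockdown values were below the controls, the nearest being that of knockdown replicate 2. The difference did not pass the test (9.02 ± 0.207 against 8.003 ± 0.618 FPKM, log2 change -0.16, SE 0.064, 95% interval -0.30 to -0.01, adjusted p = 0.0590). It passed as lower when knockdown replicate 2 was left out (-0.21, adjusted p = 0.00601) and with the length trend removed (-0.32, adjusted p = 5.46e-04), and was -0.01 (adjusted p = 0.943) on a common sum. IGF1R too is in the longest decile, whose median change was 0.17.

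INSR (ENSG00000171105, GRCh38 chr19:7112255-7294034, minus strand), the insulin receptor, was the lowest of the receptors. The controls had 1.31, 1.44 and 1.03 FPKM and the knockdown libraries 1.12, 1.41 and 1.54 FPKM. The groups overlapped, with the lowest value in control replicate 3 and the highest in knockdown replicate 3. No difference was detected (1.26 ± 0.209 against 1.36 ± 0.219 FPKM, log2 change 0.06, 95% interval -0.16 to 0.28, adjusted p = 0.628), and its sign turned with the length trend removed (-0.07, adjusted p = 0.531) or without control replicate 3 (-0.02). INSR had 157 to 236 reads per library. With 1 value per gene, the insulin receptor isoforms that differ by an exon could not be told apart.

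Ratios within a library do not depend on how libraries are scaled. IGF1R exceeded INSR by 6.77, 6.20 and 8.99 times in the controls and by 6.77, 6.19 and 5.02 times after knockdown. These values overlapped (difference of log2 ratios -0.28, exact two-sided permutation p = 0.3). The ratio of IGF2R to IGF1R was 0.585, 0.568 and 0.550 in the controls and 1.30, 1.33 and 1.28 after knockdown, so that the order of these receptors differed between the groups in every library. That ratio was chosen after its values were seen and was given no test. Its size depends on the gene lengths used, and that of IGF2R differed from GENCODE v29.

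Both IRS adaptor genes rose. IRS1 (ENSG00000169047, GRCh38 chr2:226731317-226799759, minus strand), a main docking protein of both kinase receptors, had 4.22, 4.01 and 4.05 FPKM in control replicates and 6.79, 7.11 and 6.43 FPKM in knockdown replicates. No values overlapped. The mean rose 1.66-fold, from 4.09 ± 0.109 to 6.78 ± 0.340 FPKM (a log2 change of 0.61, SE 0.064, adjusted p = 3.47e-05). IRS2 (ENSG00000185950, GRCh38 chr13:109752698-109786568, minus strand), the other widely expressed adaptor, had 2.44, 2.21 and 2.25 FPKM in control replicates and 3.48, 4.02 and 3.51 FPKM in knockdown replicates. Its groups did not overlap either, with knockdown replicate 2 the highest. The mean rose 1.60-fold, from 2.30 ± 0.121 to 3.67 ± 0.301 FPKM (a log2 change of 0.50, SE 0.075, adjusted p = 3.23e-04). With the length trend removed the changes were 0.49 for IRS1 (adjusted p = 5.83e-05) and 0.41 for IRS2 (adjusted p = 4.35e-04).

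No difference was detected in the proportion of the adaptors. IRS2 was at 0.578, 0.551 and 0.555 of the IRS1 level in the controls and at 0.513, 0.565 and 0.546 after knockdown, values that overlapped (difference of log2 ratios -0.05, exact two-sided permutation p = 0.4). In GENCODE v29, 115 bases of IRS2 exons overlap those of an antisense gene, AL162497.1, and without known use of strand such reads cannot be told apart.

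The upstream sequences of both adaptor genes are shown because the genes rose together, with the GC box GGGCGG (or CCGCCC on the other strand) in capitals. They cover 250 bases before the RefSeq start, on the minus strand, at chr2:226799821-226800070 for IRS1 and chr13:109786584-109786833 for IRS2 (GRCh38.p14):
IRS1: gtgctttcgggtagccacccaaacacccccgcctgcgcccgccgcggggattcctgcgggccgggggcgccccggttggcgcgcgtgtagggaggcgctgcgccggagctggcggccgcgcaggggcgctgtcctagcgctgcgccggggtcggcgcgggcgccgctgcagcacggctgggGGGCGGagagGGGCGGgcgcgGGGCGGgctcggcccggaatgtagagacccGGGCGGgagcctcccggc
IRS2: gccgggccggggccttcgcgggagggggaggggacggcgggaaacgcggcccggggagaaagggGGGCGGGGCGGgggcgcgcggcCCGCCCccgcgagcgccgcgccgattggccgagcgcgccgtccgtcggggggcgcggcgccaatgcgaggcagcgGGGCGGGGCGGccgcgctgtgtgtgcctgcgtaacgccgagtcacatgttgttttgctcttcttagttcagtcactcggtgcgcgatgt
IRS1 had 4 GC boxes and IRS2 had 5, overlapping matches counted separately, neither had TATAAA, and 45.0% of all promoter windows held at least 1 GC box and 15.8% at 3 or more places. All 9 genes with an entry held a GC box, among them IGF2R with 6 and INSR, which did not pass the test, with 4. IRS2 had no CACGTG in its window. IRS1 had it after the RefSeq start, though upstream of the gene's start in GENCODE v29 (226799759, minus strand). It is shown in capitals in the 30 bases of chr2:226799771-226799800:
IRS1 site: gcgcggaggctccgtCACGTGtttttctcc
Of the 9 genes with an entry in the promoter table, IGF2R and IRS1 held CACGTG. The FOXO motif GTAAACA was in 3.42% of all promoter windows. Among these 9 genes only IGFBP6, which did not pass the test, held it.

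**Figure D2:**
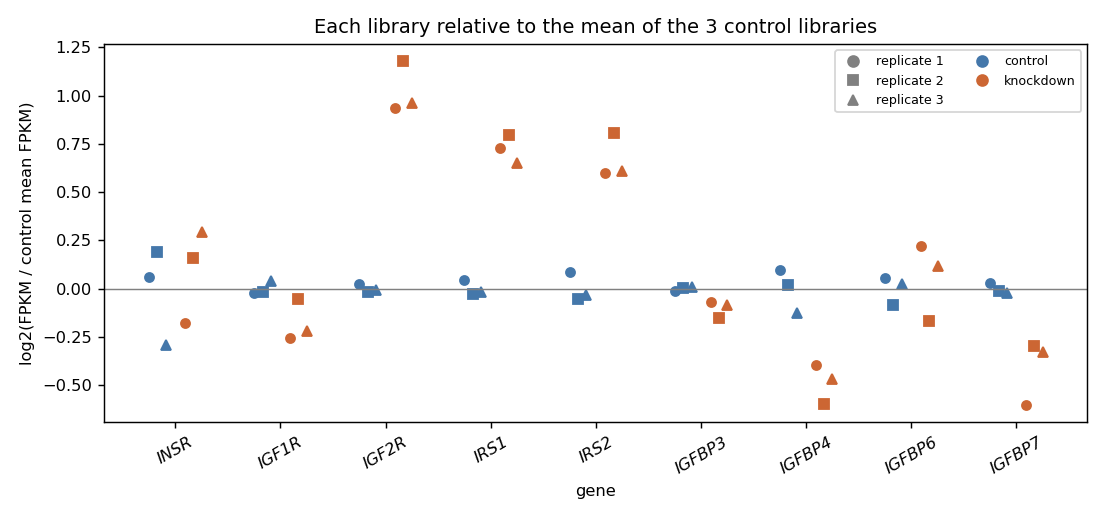
Log2 ratio of each library's FPKM to the mean of the 3 control libraries for 9 genes (IGFBP2, listed at 0 in a control library, is left out), with control in blue, knockdown in orange and a symbol for each replicate number. IGF2R, IRS1 and IRS2 lie above all controls in every knockdown library, IGFBP4 and IGFBP7 below, and INSR and IGFBP6 overlap.

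Among the binding proteins, the 2 abundant genes did not pass. IGFBP3 (ENSG00000146674, GRCh38 chr7:45912245-45921874, minus strand), the main carrier of IGFs in serum, had 227, 229 and 230.0 FPKM in control replicates and 218, 206 and 216 FPKM in knockdown replicates. Every knockdown library was below every control library by a small step, on 12960 reads or more per library. The means were 229 ± 1.47 and 213 ± 6.32 FPKM (log2 change -0.10, SE 0.045, adjusted p = 0.0804). It passed as lower when knockdown replicate 2 was left out (-0.08, adjusted p = 0.0265), and the sign turned on a common sum (0.07, adjusted p = 0.169), so no direction is given.

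IGFBP6 (ENSG00000167779, GRCh38 chr12:53097436-53102345, plus strand), which prefers IGF2 over IGF1, had 239, 217 and 234 FPKM in control replicates and 267, 204 and 249.7 FPKM in knockdown replicates. The groups overlapped: knockdown replicate 2 was the lowest of all 6 libraries and the other knockdown libraries were the highest. The means were 229.8 ± 11.5 and 241 ± 32.5 FPKM (log2 change 0.06, SE 0.089, 95% interval -0.14 to 0.26, adjusted p = 0.598). Without knockdown replicate 2 IGFBP6 passed as higher (0.17, adjusted p = 0.00909), as it did with the length trend removed (0.29, adjusted p = 0.00223) and on a common sum (0.22, adjusted p = 0.0183). Its exons are in the shortest decile of genes, whose median change was -0.20.

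IGFBP4 and IGFBP7 fell. IGFBP4 (ENSG00000141753, GRCh38 chr17:40443461-40457731, plus strand), a binding protein that mostly inhibits IGF action and is cleaved by the protease PAPPA, had 11.7, 11.1 and 9.99 FPKM in control replicates and 8.30, 7.21 and 7.91 FPKM in knockdown replicates. The highest knockdown value was below the lowest control value. The mean fell to 0.715 of the control level, from 10.9 ± 0.860 to 7.81 ± 0.555 FPKM (a log2 change of -0.44, SE 0.072, adjusted p = 5.97e-04). With the length trend removed the change was -0.27 (adjusted p = 0.00456), and on a common sum -0.29 (adjusted p = 0.00542). IGFBP4 is in decile 2 of gene length, counted from the shortest, whose median change was -0.14.

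The 250 bases upstream of IGFBP4 (GRCh38.p14, chr17:40443200-40443449, plus strand) are shown for contrast with IRS1 and IRS2, since of the 9 genes with an entry IGFBP4 alone held TATAAA, in capitals, beginning at position -29 from the start:
IGFBP4: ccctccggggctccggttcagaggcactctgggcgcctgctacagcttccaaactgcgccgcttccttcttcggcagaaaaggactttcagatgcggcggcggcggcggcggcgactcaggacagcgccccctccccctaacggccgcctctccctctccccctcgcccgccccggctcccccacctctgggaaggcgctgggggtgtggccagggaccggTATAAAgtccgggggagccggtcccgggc
TATAAA or its reverse complement was in 11.5% of all promoter windows. Variants of these letters were not searched. IGFBP4 also held GC boxes at positions -83 and 25, the first of them left in small letters above.

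IGFBP7 (ENSG00000163453, GRCh38 chr4:57030773-57110385, minus strand), a relative of the IGFBPs that binds IGFs weakly, had 17.8, 17.3 and 17.2 FPKM in control replicates and 11.5, 14.2 and 13.9 FPKM in knockdown replicates. The knockdown libraries were all below the controls, replicate 1 lowest. The mean fell to 0.756 of the control level, from 17.5 ± 0.325 to 13.2 ± 1.48 FPKM (a log2 change of -0.38, SE 0.073, adjusted p = 0.00145). The call was lost with the length trend removed (-0.20, adjusted p = 0.0607). IGFBP7 is in the shortest decile of genes, whose median change was also -0.20. Exons of POLR2B and IGFBP7-AS1 on the opposite strand share 270 and 94 bases with those of IGFBP7.

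IGFBP2 (ENSG00000115457, GRCh38 chr2:216632828-216664436, plus strand), a binding protein abundant in fetal tissue, was near the limit of detection. Control replicates 1, 2 and 3 held 3, 0 and 2 reads (0.0415, 0 and 0.02998 FPKM) and knockdown replicates 21, 13 and 13 reads (0.341, 0.177 and 0.197 FPKM). All knockdown libraries were above all control libraries, and the count of 0 allows up to 0.0448 FPKM in control replicate 2. Corrected for depth, the reads were 9.63 times as many after knockdown, and counting error alone put this ratio between 3.85 and 31.0 (exact 95% interval). No gene of the table averaged under 0.1 FPKM over the 6 libraries, and IGFBP2 averaged 0.0238 FPKM in the controls. It therefore had a row only through its knockdown values, so a rise was favoured by how the table was made. With that limit, the change on the log2(FPKM + 1) scale was 0.27 (SE 0.082, adjusted p = 0.0165). The call was lost without control replicate 2 (adjusted p = 0.0513), without knockdown replicate 1 (adjusted p = 0.0598) and with quantile normalization (adjusted p = 0.0755). In bulk RNA, more cells that express IGFBP2 and more of its RNA in each cannot be told apart.

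**Figure D3:**
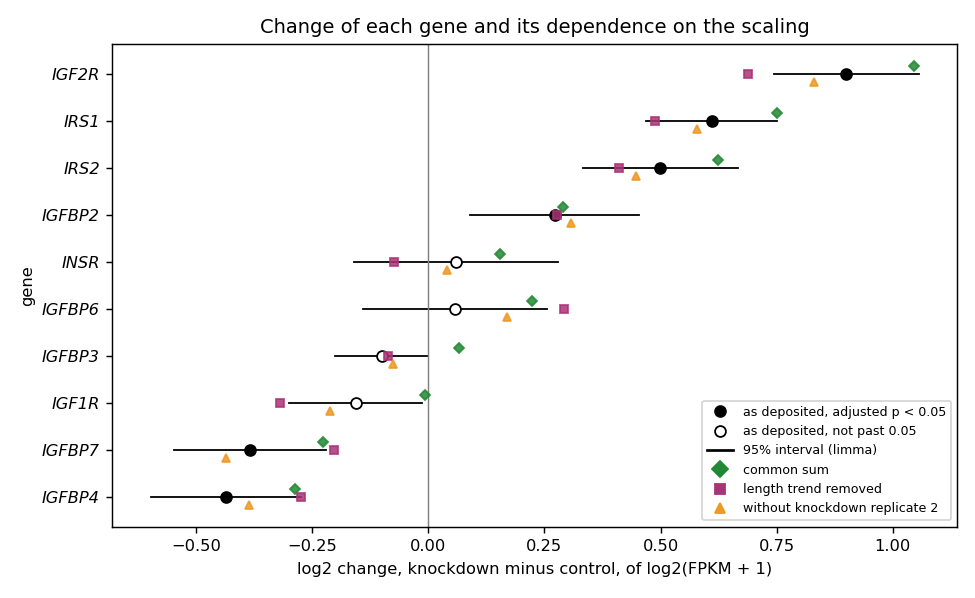
Log2 change of each gene (knockdown minus control, of log2(FPKM + 1)) with its 95% interval from limma, as deposited (black, filled where the adjusted p was below 0.05), after rescaling to a common sum (green), with the length trend removed (purple) and without knockdown replicate 2 (orange). IGF2R, IRS1 and IRS2 lie at or above 0.41 in all 4, IGFBP4 and IGFBP7 at or below -0.20 in all 4, and IGFBP3 is on both sides of 0.

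IGFBP3 took 45.8%, 48.3% and 46.8% of the summed FPKM of the 5 IGFBP genes in the controls and 43.1%, 47.7% and 44.3% after knockdown, which overlapped (47.0% ± 1.25 against 45.0% ± 2.38, exact two-sided permutation p = 0.3). IGFBP6 took 45.7% to 48.2% in the controls and 47.3% to 52.9% after knockdown. The sum was 475 to 496 FPKM and 432 to 506 FPKM. IGFBP4 made up 2.04% to 2.36% of it in the controls and 1.62% to 1.67% after knockdown, and IGFBP7 3.51% to 3.65% and 2.28% to 3.29%. IGFBP2 was at most 0.0673% in any library.

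**Figure D4:**
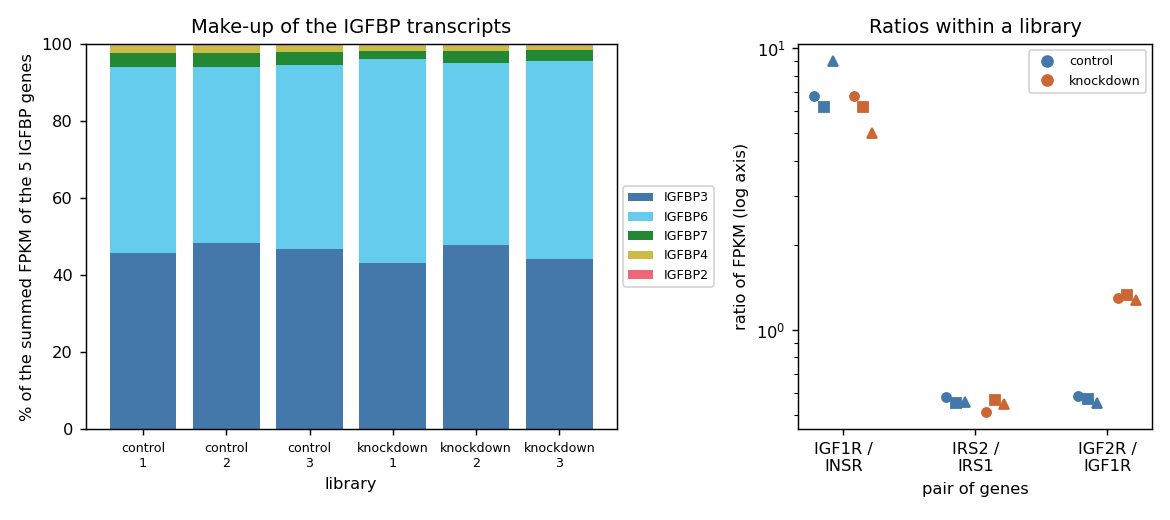
Left, percent of the summed FPKM of 5 IGFBP genes taken by each in every library; right, ratios of FPKM within a library on a log axis, control in blue and knockdown in orange, with circles, squares and triangles for replicates 1, 2 and 3. IGFBP3 and IGFBP6 take nearly all of the sum in each library, and of the 3 ratios only that of IGF2R to IGF1R separates the groups.

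The ligands could not be followed. Of INS, IGF1, IGF2, INSL3, IGFBP1, IGFBP5, IGFBPL1, IGFALS, INSRR and IRS4, only IGFALS, the serum partner of IGFBP3, had a row, with 0.138 ± 0.0454 FPKM in the controls and 0.178 ± 0.106 FPKM after knockdown. The table held no gene with a mean under 0.1 FPKM, and the other 9 are not analysed here.

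Proteins that act on IGFBPs went both ways: 4 of 9 tested were higher and 3 lower (median change -0.09). Among all genes 29.6% were higher and 27.8% lower. On a common sum 4 of the list were higher and 1 lower (median 0.04), against 4865 and 1839 over all genes. STC2, a stanniocalcin that inhibits PAPPA, rose from 38.9 ± 0.238 to 73.9 ± 0.381 FPKM (adjusted p = 1.74e-07), the largest change among the 86 pathway genes tested. The metalloprotease ADAM9 rose from 10.4 ± 0.238 to 14.2 ± 1.53 FPKM (log2 change 0.41, and 0.22 with the length trend removed). LRP1, an endocytic receptor that binds IGFBP3, rose from 11.1 ± 0.292 to 14.1 ± 1.26 FPKM, a call lost with the length trend removed (adjusted p = 0.0758). CTSD, a lysosomal protease carried by IGF2R, fell from 58.9 ± 0.761 to 41.1 ± 5.54 FPKM. TMEM219, an IGFBP3 receptor, fell from 33.9 ± 2.199 to 27.9 ± 1.58 FPKM, and PLAU, which encodes urokinase, fell from 146 ± 1.64 to 129.9 ± 8.20 FPKM. Neither passed on a common sum (adjusted p = 0.111 and 0.898) or with the length trend removed (adjusted p = 0.0724 and 0.208). PAPPA itself, named after its values were seen, had 0.631 ± 0.0189 and 0.450 ± 0.0741 FPKM and missed the threshold (-0.17 on the log2 scale, adjusted p = 0.0780), although its groups did not overlap. It passed as lower with the length trend removed (-0.31, adjusted p = 0.00490) and with voom (-0.50, adjusted p = 0.0170). PAPPA met the filter of 0.5 FPKM only through its control values, so the filter favoured a fall, and no direction is given.

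Of 27 adaptors and brakes at the receptor tested, 10 were higher and 3 lower (median change 0.11), where 29.6% of all genes were higher and 27.8% lower. On a common sum 17 were higher and 2 lower, as the whole table moved to 4865 higher and 1839 lower. CAV1, the caveolin whose caveolae hold insulin receptors, rose from 299 ± 4.04 to 467 ± 4.78 FPKM. PTPN11, the phosphatase SHP2 that docks on IRS1, rose from 25.5 ± 0.441 to 38.5 ± 4.03 FPKM. The ubiquitin ligase CBL rose from 6.80 ± 0.0740 to 9.39 ± 1.14 FPKM. GRB7, an SH2 adaptor, fell from 30.6 ± 0.935 to 16.8 ± 1.18 FPKM (adjusted p = 2.83e-06). Of the adaptors that bind the insulin receptor, SH2B2 fell from 3.22 ± 0.281 to 2.18 ± 0.348 FPKM and SH2B1 from 5.27 ± 0.368 to 3.95 ± 0.211 FPKM, the latter not on a common sum (adjusted p = 0.0536).

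Of 18 PI3K, AKT and FOXO genes tested, 8 were higher and 2 lower (median change 0.11), against 29.6% and 27.8% of all genes. With the length trend removed 4 were higher and 5 lower, against 3211 and 3142 over all genes. PIK3R1, the regulatory subunit that binds phosphorylated IRS proteins, rose from 1.48 ± 0.215 to 2.68 ± 0.620 FPKM. FOXO3, a transcription factor that AKT keeps out of the nucleus, rose from 7.64 ± 0.0617 to 10.5 ± 0.482 FPKM, while FOXO4 of the same family fell from 3.98 ± 0.285 to 2.42 ± 0.135 FPKM. The AKT phosphatase genes also parted, PHLPP2 rising from 1.22 ± 0.142 to 1.94 ± 0.210 FPKM and PHLPP1 falling from 5.68 ± 0.4996 to 3.97 ± 0.165 FPKM.

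Downstream, 4 of 13 genes around mTOR and S6 kinase passed, all higher (median change 0.09), where 57.4% of all genes passed. RICTOR, of mTOR complex 2, rose from 5.94 ± 0.199 to 9.13 ± 0.840 FPKM. RPS6KB1, the S6 kinase that phosphorylates IRS1, rose from 5.35 ± 0.242 to 7.34 ± 0.470 FPKM. GSK3B, a kinase that AKT restrains, rose from 5.55 ± 0.0314 to 7.55 ± 0.761 FPKM (log2 change 0.38, and 0.19 with the length trend removed). On a common sum 7 passed, all higher, and this list had 5 higher and 1 lower both with the length trend removed and without knockdown replicate 2.

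In the list of receptor maturation and trafficking, 5 of 17 were higher and 5 lower (median change 0.00). The shares over all genes were 29.6% and 27.8%. With the length trend removed the list had 3 higher and 7 lower, and on a common sum 8 and 3. Without knockdown replicate 2 it had 3 and 5. FURIN, which cuts the proreceptors of insulin and IGF1, fell from 34.7 ± 0.455 to 27.0 ± 0.910 FPKM. M6PR, the smaller mannose 6-phosphate receptor, rose from 27.4 ± 0.563 to 32.5 ± 3.13 FPKM, and AP1G1 of the sorting adaptor AP-1 from 7.49 ± 0.336 to 9.85 ± 0.793 FPKM. NAGPA and GNPTG, which help build the mannose 6-phosphate tag, both fell. NAGPA went from 3.12 ± 0.350 to 1.97 ± 0.414 FPKM and GNPTG from 5.52 ± 0.169 to 4.21 ± 0.204 FPKM. PCSK6, a relative of FURIN, rose from 0.508 ± 0.0331 to 0.785 ± 0.0948 FPKM, but not without knockdown replicate 2 (adjusted p = 0.0610) or with the length trend removed (adjusted p = 0.712). Of the mRNA-binding proteins named for IGF2, IGF2BP3 rose from 2.89 ± 0.114 to 5.11 ± 0.715 FPKM and IGF2BP2 from 34.4 ± 0.882 to 39.1 ± 1.27 FPKM.

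Across these 6 lists, 33 of 86 genes tested were higher and 13 lower, together 53.5%, with a median change of 0.10. That share is close to the 57.4% of all genes. By direction, 38.4% were higher and 15.1% lower, against 29.6% and 27.8% of all genes. The split moved with the processing, to 46 higher and 8 lower on a common sum (4865 and 1839 over all genes) and to 28 and 18 with the length trend removed (3211 and 3142 over all genes). Among the pathway genes named, those that kept their call but whose log2 change shrank by over 1.5 times with the length trend removed were, beside ADAM9 and GSK3B, CBL (0.41 to 0.27), SH2B2 (-0.41 to -0.27), PHLPP2 (0.40 to 0.26) and AP1G1 (0.35 to 0.22). On a common sum FURIN (-0.35 to -0.19) and GNPTG (-0.32 to -0.18) shrank as much, and IGF2BP2 (0.18 to 0.34) and M6PR (0.23 to 0.39) grew.

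**Figure D5:**
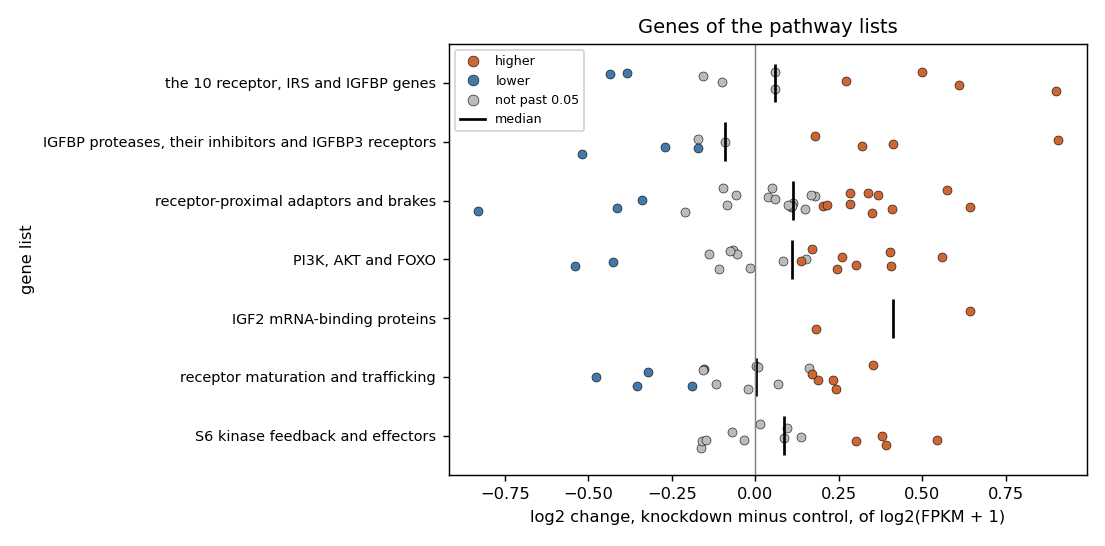
Log2 change (knockdown minus control, of log2(FPKM + 1)) of the 10 genes and of each tested gene of 6 pathway lists, orange where higher and blue where lower at an adjusted p below 0.05 and grey otherwise, with a line at each median. Medians of the 6 lists lie between -0.09 and 0.41, and all lists but those of the IGF2 mRNA-binding proteins and S6 kinase effectors hold calls in both directions.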

How the data were processed

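The authors deposited 1 FPKM value for each gene in each of the 6 libraries. TRIzol extraction and an Illumina TruSeq RNA kit are named in the labels' protocols, and HISAT2 2.2.1 and GRCh38 in the submitters' processing notes. The sources used here do not give the program that counted reads, nor the annotation, lengths or strand setting. Because FPKM values are relative to the library, a change in abundant transcripts shifts the rest.

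Whole reads were recovered as multiples of the step common to a gene's 6 FPKM values, for all 12829 genes within 0.004 reads. A common divisor cannot be seen: reads of 201 genes (IRS2 among them, by 3) were raised by a whole multiple from 2 to 6 where the GENCODE v29 exon length asked for it within 3%. Reads are not independent molecules, so intervals cover counting error only.

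The groups were compared on log2(FPKM + 1) with limma 3.58.1 (R 4.3.3), keeping genes that averaged 0.5 FPKM or more and IGFBP2, with a variance trend, two-sided tests and Benjamini-Hochberg adjustment. Ratios and shares were tested by exact permutation in SciPy 1.17.1. The scripts were first tested on simulated data. Alternatives were pseudocounts of 0.1 and 0.5, no filter, a common sum, quantile normalization, removal of the trend over gene length, voom on recovered reads, a replicate block and leaving out each library. Promoter sequences are from RefSeq (GRCh38.p14), found for 9 of the 10 genes.

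The 10 genes and the lists were chosen with earlier results of these data known. Beside them the rule named IQGAP2, KRT5, KRT14 and TP63, up to 3 rises and 3 falls past the threshold in each pathway list, the detected ligand-list gene, the highest gene of each list of another cell type and the gene of most similar profile to each of the 10.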

Additional observations from a re-analysis of the deposited data

How the results depend on the processing

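IGF2R, IRS1, IRS2 and IGFBP4 kept their direction and passed under all 14 alternatives, with log2 changes of 0.69 to 1.05, 0.49 to 0.75, 0.41 to 0.66 and -0.51 to -0.27. IGFBP7 passed under all but removal of the length trend (-0.20), with a range of -0.44 to -0.20. IGFBP2 (0.20 to 3.27) lost its call with quantile normalization (0.20); over the libraries left out in turn its change was 0.21 to 0.31, and the call was lost without control replicate 2 or knockdown replicate 1. IGF1R (-0.32 to -0.01) passed as lower with the length trend removed (-0.32), quantile normalization (-0.18) and voom on recovered reads (-0.19), and ranged from -0.21 to -0.12 over libraries left out. IGFBP3 passed as lower with voom (-0.12), was higher but not past the threshold with quantile normalization (0.0499) and a common sum (0.0659), and ranged from -0.116 to -0.0757 over libraries left out. IGFBP6 passed as higher with the length trend removed (0.29), quantile normalization (0.24) and a common sum (0.22), and ranged from -0.0229 to 0.170 over libraries left out, being lower without knockdown replicate 1. INSR passed under none and was -0.0741 with the length trend removed and -0.0161 to 0.135 over libraries left out. Apart from the length and scaling differences named here and in the report, the causes were not tested.

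The number of genes called over the whole table stayed within 1.5 times the main 6436. The replicate numbers of the labels did not pair the libraries: deviations of same-numbered libraries correlated at -0.10, -0.06 and 0.06. With the replicate block 6192 genes and the same 6 of the 10 genes passed, IGF2R at 0.90 and IGFBP7 at -0.38. The ratios of IGF1R to INSR and of IRS2 to IRS1 and the share of IGFBP3 kept their sign under all alternatives, in a design whose smallest p is 0.1; that p was reached for both ratios with a pseudocount of 1 in the ratio and for the share with the length trend removed. IGFBP2, with 52 reads in all, is limited by depth; the other 9 genes had 1220 reads or more.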

Other observations

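The IGF-like (IGFL) genes, which encode small secreted proteins of skin that resemble IGFs in their cysteine pattern but do not use the IGF receptors, were looked at after the values above were seen. IGFL1 was at 2.61, 1.73 and 1.19 FPKM in control and 6.12, 5.14 and 6.45 FPKM in knockdown libraries, on 13 to 31 and 62 to 70 reads. The lowest knockdown library was above the highest control library, and IGFL1 passed the limma test (log2 change 1.31, SE 0.156, adjusted p = 8.07e-05). IGFL4 was at 0.352, 0.456 and 0.401 FPKM in control and 0.805, 0.555 and 0.983 FPKM in knockdown libraries, on 20 to 51 reads. In the limma test its log2 change was 0.34 (adjusted p = 0.0136). With a control mean of 0.403 FPKM, IGFL4 met the filter of 0.5 FPKM only through its knockdown values. The filter thus favoured a rise, and no conclusion is drawn from this call. IGFL2 had 2 to 9 reads per library and overlapped between groups. The IGFL genes are similar in sequence, so their values are uncertain where reads match several of them.

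For each of the 10 genes, the gene of the table with the most similar profile was found, by the root mean square difference of log2(FPKM + 1) values centred on each gene's mean over the 6 libraries. As a description over 6 libraries that fall into 2 groups, the nearest gene was ITGA6 for IGF2R (difference 0.0209), NFE2L1 for IRS1 (0.0245), ZZZ3 for IRS2 (0.0154), MYH10 for IGF1R (0.0154), EDN2 for INSR (0.0401) and C11orf68 for IGFBP2 (0.0247). For IGFBP3 it was MPI (0.0147), for IGFBP4 POU5F1 (0.0158), for IGFBP6 TSSC4 (0.0268) and for IGFBP7 TMC7 (0.0391). This scale flattens low genes, so likeness does not mean an equal fold change. C11orf68 had 25.1 ± 0.0547 and 31.0 ± 2.02 FPKM in control and knockdown libraries, where IGFBP2 had 0 to 21 reads per library. EDN2 had only 7 to 13 reads per library.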
